A study of Mus musculus with 16 samples.

Results

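The activin, inhibin and follistatin genes described here are *Inha*, *Inhba*, *Inhbb*, *Fst*, *Fstl3*, *Acvr1b*, *Acvr2a*, *Acvr2b* and *Tgfbr3*. They were chosen by name and not by their values, as the genes of local control of follicle-stimulating hormone (FSH). Earlier results of these data were known at that choice. They are 9 of the 17362 genes listed for the mouse pituitary. Pituitary RNA was sequenced from 16 female mice, with 1 library per mouse and 4 mice in each of 4 groups. Control females carried the *Esr1*fl/fl allele without Cre, and *Esr1*Nkx2-1Cre mutant females carried the same allele and lost *Esr1*, the gene for oestrogen receptor alpha, in cells that express or once expressed *Nkx2-1*. Each genotype was fed either the standard diet (SD, chow in the labels) or a high-fat diet (HFD) for 17 weeks, and all mice were 27 weeks old. Both genotypes shared a mixed CD-1;129P2 background, and the stage of the oestrous cycle is not given in the sources used here. In these mutants the gene is lost in the hypothalamus too, so loss in pituitary cells and loss in the hypothalamus cannot be told apart.

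Activins are pairs of beta subunits, encoded by *Inhba* and *Inhbb*, and inhibins join 1 beta subunit to the alpha subunit encoded by *Inha*. In the pituitary, activin made by gonadotrophs and other cells binds the type II receptors ACVR2A and ACVR2B, which recruit the type I receptor ACVR1B, and SMAD proteins then carry the signal to *Fshb*, the FSH beta subunit gene. Inhibin blocks this by holding the type II receptors with the help of co-receptors, among them betaglycan (TGFBR3), and follistatin (FST) and FSTL3 bind activin and keep it from its receptors.

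*Inhbb* was the only one of these genes called between genotypes, so the 250 bases before its annotated start are shown, beside those of the other beta subunit gene. The sequences are RefSeq's, on GRCm38.p6, from chr1:119422249-119422498 on the minus strand for *Inhbb* and chr13:16011601-16011850 on the plus strand for *Inhba*. Capitals mark any match, on either strand, to AGGTCA (the half-site of nuclear receptors), CAGAC (a SMAD box) or GGGCGG (a GC box).
Inhbb: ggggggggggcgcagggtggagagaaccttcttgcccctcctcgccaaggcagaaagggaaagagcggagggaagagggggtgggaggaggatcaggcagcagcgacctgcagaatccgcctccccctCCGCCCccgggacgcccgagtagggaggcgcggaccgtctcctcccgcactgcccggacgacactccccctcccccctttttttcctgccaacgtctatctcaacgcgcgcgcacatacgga
Inhba: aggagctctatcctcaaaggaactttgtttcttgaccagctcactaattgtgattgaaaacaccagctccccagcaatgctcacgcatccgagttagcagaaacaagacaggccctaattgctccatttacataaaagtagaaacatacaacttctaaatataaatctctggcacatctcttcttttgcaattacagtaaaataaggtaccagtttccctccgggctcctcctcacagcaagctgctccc
The *Inhbb* stretch held 1 GC box and neither of the other motifs, and the *Inhba* stretch held none of them. Over the same 250 bases of 32851 promoters, 14.0% held AGGTCA, 42.2% held CAGAC and 32.7% held GGGCGG. The *Inhbb* stretch was 68.0% G and C and the *Inhba* stretch 43.2%, against a median of 52.4%. These matches describe letters in 1 window and show no binding.

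The values are normalized expression values per gene and mouse, scaled by transcript length, and they summed to between 908897 and 1335782 per mouse. Genes with a mean of at least 1 were tested with limma on log2(value + 0.5), with Benjamini-Hochberg adjustment over 14345 genes and a threshold of 0.05, and fold changes on this scale understate those of low genes. *Fst* fell below that filter, so 8 of the 9 genes were tested. *Esr1* itself ranged from 29.0 to 46.6 in controls and from 10 to 22.2 in mutants on SD, and from 23.6 to 43.4 and 21.5 to 33.4 on HFD, where the groups overlapped. Markers of the 5 hormone lineages of the anterior lobe were listed above 0 in every mouse. *Prl* alone took 28.8% to 40.6% of the summed per-length values of each mouse, which is not its share of reads. Libraries P357 (mutant on SD) and P392 (control on HFD) stood apart in the lobe score. This score is the mean log2 level of 7 genes of the intermediate and posterior lobes. It was 1.79 and 2.69, against 4.15 to 5.18 in the other 14. The sum of the melanotroph (intermediate lobe) markers *Pax7*, *Oacyl* and *Pcsk2* was 12.7 and 40.6, against 99.4 to 255 elsewhere. The sum of the posterior lobe markers *Rax*, *Nkx2-1*, *Lhx2* and *Col25a1* was 14.3 and 15.9, within 11.5 to 27.3 over the 16 mice. *Esr1* in P392 was 39.6, inside the range of the other controls on HFD. In whole tissue, fewer cells of a type and less RNA per cell cannot be told apart.

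Ordered by their means over the 16 mice on this per-length scale, *Inha* came first at 53.9, followed by *Tgfbr3* at 14.8, *Acvr1b* at 12.8, *Fstl3* at 12.3, *Inhbb* at 8.95, *Acvr2b* at 7.64, *Acvr2a* at 7.15, *Inhba* at 1.11 and *Fst* at 0.300. *Inha* exceeded *Tgfbr3* in all 16 mice and *Acvr2a* exceeded *Inhba* in all 16, so these steps held in every library. *Acvr1b* exceeded *Fstl3* in 9 mice and *Acvr2b* exceeded *Acvr2a* in 7, so these neighbours did not differ beyond their spread, and the other neighbours kept their order in 10 to 15 mice. Per mouse, the activin B subunit *Inhbb* was 2.83 to 12.9 times as abundant per length as the activin A subunit *Inhba*.

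**Figure D1:**
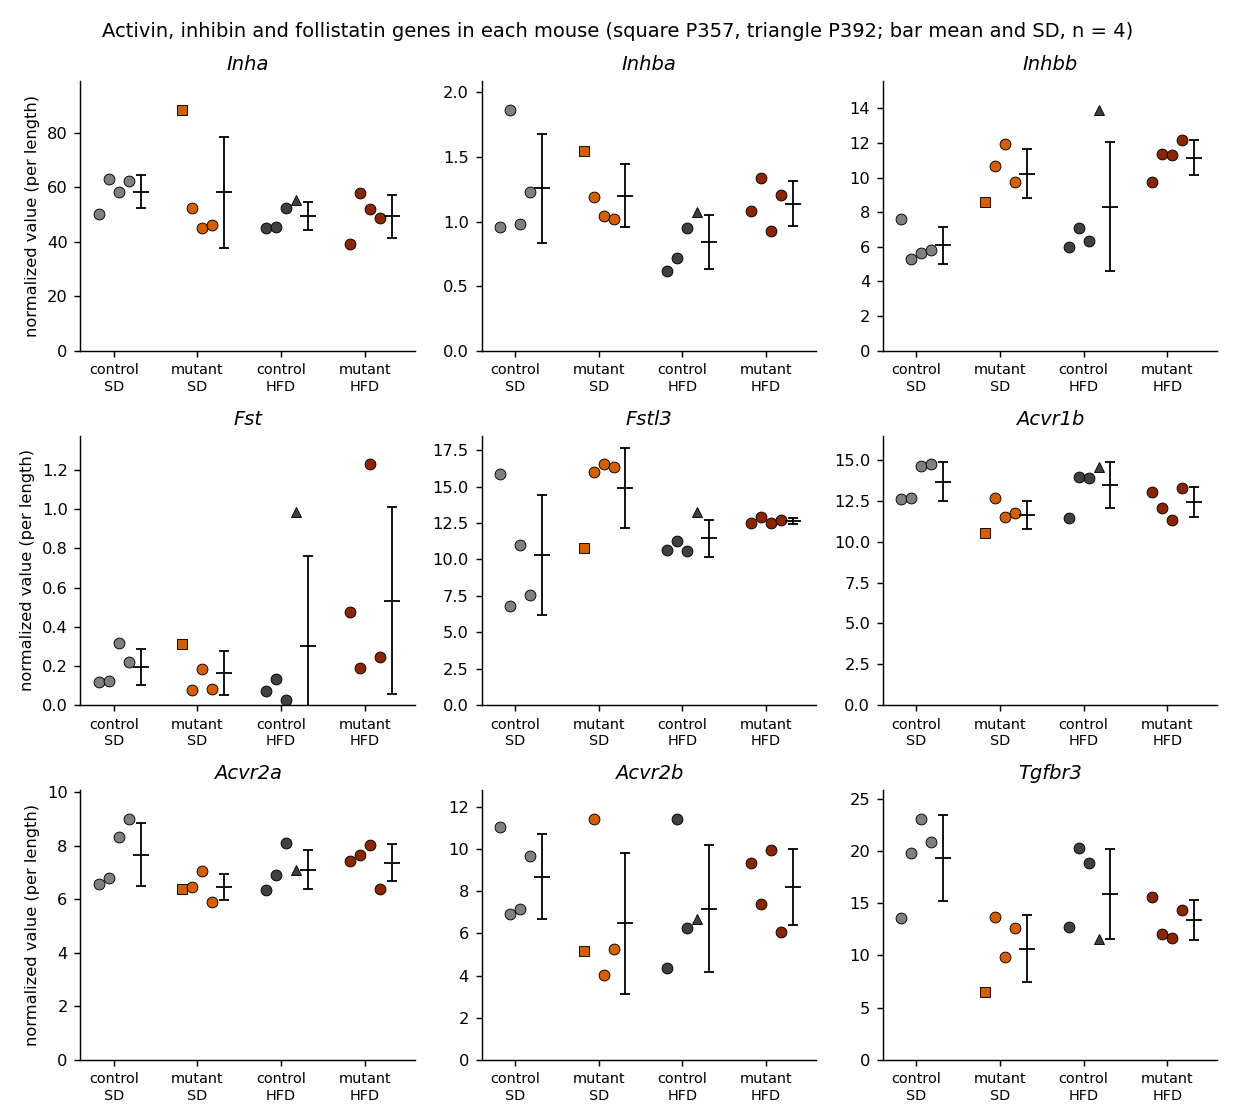
Normalized expression value per length (vertical axis, linear, from 0) of the 9 genes in each of the 16 mice, by genotype and diet (horizontal axis), with the mean and SD of each group of 4 beside the points. The lower end of the SD bar of Fst in controls on HFD lies below 0 and is not drawn. Inhbb was between 5.28 and 7.64 in controls on SD and between 8.57 and 11.9 in mutants on SD, and the triangle at 13.9 is control P392.

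Averaged over diets, *Inhbb* was higher in mutants than in controls by 0.59 on the log2 scale (standard error 0.15, 1.51-fold, adjusted p = 0.0288 from limma). It was the only one of the 8 genes tested to pass, against 6.54% of all tested genes in either direction and 4.48% upwards, and the other 7 genes, the co-receptor *Tgfbr3* among them, did not. No member passed between diets or for the interaction of genotype and diet. At an unadjusted p under 0.05, 4 members counted between genotypes (22.7% of all tested genes), 0 between diets (5.11%) and 0 for the interaction (4.2%). The median difference of the 8 genes between genotypes was -0.06, against 0.00 over all tested genes.

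*Inhbb* (ENSMUSG00000037035, chromosome 1 of GRCm38, 119415465 to 119422248, minus strand) has 1 annotated transcript and shares no exon with another gene. In controls on SD its value was 7.64 (P356), 5.28 (P358), 5.65 (P359) and 5.80 (P383), and in mutants on SD it was 8.57 (P357), 10.7 (P381), 11.9 (P382) and 9.73 (P384). All 4 mutants exceeded all 4 controls, with P357 the lowest of the mutants. Of all tested genes, 10.6% had groups that did not overlap on SD, and 6.09% had the mutants above, as *Inhbb* did. The difference was 0.71 (standard error 0.21, 1.63-fold, adjusted p = 0.0888 from limma), and the exact permutation test gave a two-sided p of 0.0286, the smallest that 4 mice against 4 allow. After adjustment over all genes, then, the difference on SD alone did not pass.

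On HFD, *Inhbb* was 5.98 (P385), 7.06 (P390), 6.36 (P391) and 13.9 (P392) in controls and 9.75 (P339), 11.4 (P341), 11.3 (P387) and 12.2 (P388) in mutants. P392 had the highest value of the 16 mice, while the other 3 controls lay below every mutant on HFD. The difference was 0.48 (standard error 0.21, limma adjusted p = 0.460, exact permutation p = 0.143, two-sided), and without P392 it was 0.74 (standard error 0.15, adjusted p = 0.00961 from limma). On HFD, 4.55% of all tested genes were called when P392 was left out. That 1 library therefore decided the call on HFD. Averaged over diets, mice permuted within diet gave a two-sided exact permutation p of 0.00449. The change with genotype did not differ detectably between diets (interaction -0.23, 95% interval -0.86 to 0.40, adjusted p = 0.940 from limma).

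The call of *Inhbb* averaged over diets held in each of the 11 other settings tried, with differences of 0.56 to 0.76. It held in 5 of the 16 fits that left out 1 mouse, with adjusted p values from 0.000264 without P392 to 0.0692 without P390 (limma). In the other 11 fits the adjusted p was at least 0.0531, and the difference stayed between 0.53 and 0.72 over all 16. By the size of 1 read in each library, *Inhbb* rested on 361 to 1005 reads per mouse.

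The summed level of 4 endothelial genes (*Pecam1*, *Kdr*, *Cdh5* and *Plvap*) was, like *Inhbb*, higher in mutants and in P392. It was 90.5 to 106.5 in controls and 139 to 180 in mutants on SD, and on HFD 80.1 to 94.0 in 3 controls, 155 in P392 and 128 to 142 in mutants. Among mutants on each diet, the mouse with the highest sum had the lowest *Inhbb*. These were P357 on SD (180, *Inhbb* 8.57) and P339 on HFD (142, *Inhbb* 9.75). In the other mutants on SD the sum and *Inhbb* rose together, at 139 and 9.73 (P384), 142 and 10.7 (P381) and 147 and 11.9 (P382). In the other mutants on HFD they were 128 and 11.4 (P341), 130 and 12.2 (P388) and 133 and 11.3 (P387). Of the 4 endothelial markers, 3 rose in mutants averaged over diets, as did 1 of 4 immune, 1 of 4 posterior lobe and 1 of 3 thyrotroph markers (limma, adjusted p under 0.05), against 4.48% of all tested genes. For the 4 immune markers the sum was 25.3 to 37.1 in controls and 46.2 to 122 in mutants on SD. On HFD the immune sum was 22.9 to 47.9 in 3 controls, 79.0 in P392 and 47.1 to 104 in mutants. The summed level of the 4 posterior lobe markers was 12.5 to 15.9 in controls and 14.3 to 27.3 in mutants on SD. On HFD this sum was 11.5 to 15.9 in controls and 19.3 to 22.2 in mutants. Of these markers, *Rax*, *Nkx2-1* and *Lhx2* were at 0 in some mice. Of the 5 gonadotroph markers, 0 passed averaged over diets, against 6.54% of all tested genes. Among them *Lhb* differed by -0.68 (adjusted p = 0.0733 from limma). Their sum was 942 to 1524 and 710 to 1312 on SD in controls and mutants, and 617 to 1452 and 412 to 808 on HFD. *Lhb* made up most of that sum in every mouse, with 1343 of 1452 in P385, so the sum mainly followed *Lhb*. The part of these cell types in the difference of *Inhbb* was not tested.

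*Inha*, the alpha subunit of inhibin (ENSMUSG00000032968, chromosome 1, 75507077 to 75510366), did not pass in any comparison. It was 50.1, 63.2, 58.1 and 62.3 in controls on SD and 88.4 (P357), 52.6, 45.3 and 46.3 in mutants on SD. On HFD it was 45.1 to 55.5 in controls and 39.1 to 58.0 in mutants. P357 was far above all other mice, and the groups overlapped on both diets. The genotype difference averaged over diets was -0.04 with a 95% interval of -0.31 to 0.24 (adjusted p = 0.902 from limma). The diet difference was -0.21 (95% interval -0.48 to 0.06, adjusted p = 0.910 from limma).

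*Inhba*, the activin A subunit (ENSMUSG00000041324, chromosome 13, 16011851 to 16031621), was low throughout. It ranged from 0.956 to 1.86 in controls and from 1.02 to 1.55 in mutants on SD, and from 0.614 to 1.08 in controls and from 0.928 to 1.33 in mutants on HFD. The groups overlapped on both diets, with the 2 lowest values in controls on HFD and the single highest in a control on SD. Such a value was worth 13.9 to 45.2 reads per mouse on the shorter annotated coding transcript and 67.1 to 212 on the longer. The genotype difference was 0.13 (95% interval -0.19 to 0.46, adjusted p = 0.659 from limma).

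Of the activin-binding proteins, *Fst* (ENSMUSG00000021765, chromosome 13, 114452290 to 114458951), which encodes follistatin, was close to the limit of counting. It was 0.120, 0.125, 0.316 and 0.220 in controls and 0.314, 0.0765, 0.187 and 0.0818 in mutants on SD. On HFD it was 0.0723, 0.133, 0.0244 and 0.987 (P392) in controls and 0.475, 0.189, 1.23 (P387) and 0.244 in mutants. The highest values, in P387 and P392, came from both genotypes, and all comparisons overlapped. With all its reads on the longest coding transcript, *Fst* rested on 1.1 to 69.4 reads per mouse (median 8.7), and on the shortest on 0.3 to 15.2 (median 2.1). Differences of *Fst* at this depth were not detectable (exact permutation test, genotype p = 0.487 and diet p = 0.240, two-sided). Its exons overlap *Gm47040* on the other strand over 115 bp, and use of the strand in counting is not given in the sources used here.

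*Fstl3* (ENSMUSG00000020325, chromosome 10, 79777272 to 79782630), which encodes a follistatin-like protein that also binds activin, was well above *Fst*. On SD it was 15.9 (P356), 6.83, 11 and 7.55 in controls and 10.8 (P357), 16, 16.5 and 16.3 in mutants. P356 lay with the mutants and P357 with the controls, so the groups overlapped. The difference was 0.57 (standard error 0.21, adjusted p = 0.151 from limma), and without P356 it was 0.79 (adjusted p = 0.0207). On HFD *Fstl3* was 10.6 to 13.3 in controls and 12.5 to 12.9 in mutants, a difference of 0.14 (standard error 0.21, adjusted p = 0.869 from limma). Averaged over diets it did not pass (0.35, adjusted p = 0.164 from limma), except without P356 (0.0226) or without both P357 and P392 (0.0412). *Prss57*, on the opposite strand, overlaps 1157 of the 2445 exonic bp of *Fstl3*, and reads of the 2 genes may have been mixed.

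The type II receptors did not pass in any comparison. *Acvr2a* (ENSMUSG00000052155, chromosome 2, 48814109 to 48903269) was 6.56 to 9.01 in controls and 5.89 to 7.07 in mutants on SD, and 6.33 to 8.11 and 6.38 to 8.02 on HFD. Its genotype difference averaged over diets was -0.09 (95% interval -0.28 to 0.11, adjusted p = 0.627 from limma). *Acvr2b* (ENSMUSG00000061393, chromosome 9, 119402118 to 119434995) spread more widely, from 4.03 to 11.4, and P381 at 11.4 stood above the other mutants on SD at 4.03 to 5.28. The genotype difference of *Acvr2b* was -0.12, with a 95% interval of -0.57 to 0.33 (adjusted p = 0.780 from limma), which leaves room for a change of that size in either direction. *Acvr2a* shares 446 exonic bp with *Orc4* on the other strand.

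*Acvr1b*, the type I receptor also called ALK4 (ENSMUSG00000000532, chromosome 15, 101174067 to 101213684), had a mean of 12.8 with an SD of 1.3 over the 16 mice. It was 12.6, 12.7, 14.7 and 14.7 in controls and 10.5, 12.7, 11.5 and 11.8 in mutants on SD, and 11.4 to 14.6 and 11.3 to 13.3 on HFD. On SD the highest mutant, P381, reached the range of the controls and the other 3 did not. Averaged over diets the difference was -0.17 (standard error 0.08, adjusted p = 0.214 from limma), and the exact permutation test of this gene alone gave a two-sided p of 0.0188.

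*Tgfbr3* (ENSMUSG00000029287, chromosome 5, 107106570 to 107289629) encodes betaglycan, which lets inhibin compete with activin. On SD it was 13.5 (P356), 19.8 (P358), 23.1 (P359) and 20.9 (P383) in controls and 6.47 (P357), 13.7 (P381), 9.81 (P382) and 12.6 (P384) in mutants. The groups met between P356 and P381 only. On HFD it was 12.7, 20.2, 18.9 and 11.6 (P392) in controls and 15.6, 12.0, 11.7 and 14.4 in mutants, and the range of the mutants lay inside that of the controls.

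The difference of *Tgfbr3* on SD was -0.86 (standard error 0.23, 0.552-fold, limma adjusted p = 0.0673, exact permutation p = 0.0571, two-sided), and on HFD -0.21 (standard error 0.23, adjusted p = 0.826 from limma). Averaged over diets it was -0.53 (standard error 0.16, 0.692-fold, limma adjusted p = 0.0653, exact permutation p = 0.0151), short of the threshold. It passed with quantile normalization (adjusted p = 0.0404), with the lobe score as a covariate (0.0288), without P356 (0.0275), without P392 (0.0259) and without both P357 and P392 (0.0258, limma). The difference between diets in this genotype effect was 0.65 (95% interval -0.05 to 1.35, adjusted p = 0.924 from limma), so the diets were not shown to differ.

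**Figure D2:**
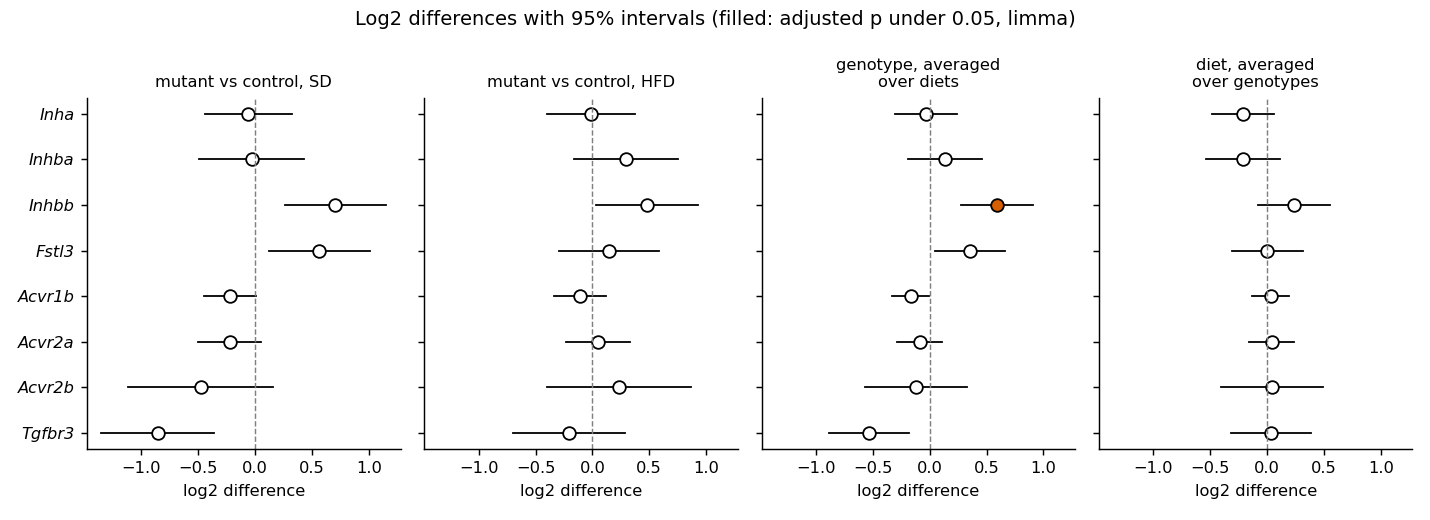
Log2 differences (horizontal axes, log2 scale) of the 8 genes tested, in 4 comparisons, with 95% intervals from limma, where filled points mark an adjusted p under 0.05. Only Inhbb averaged over diets is filled, at 0.59, and the intervals of the diet comparison all cross 0.

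**Figure D3:**
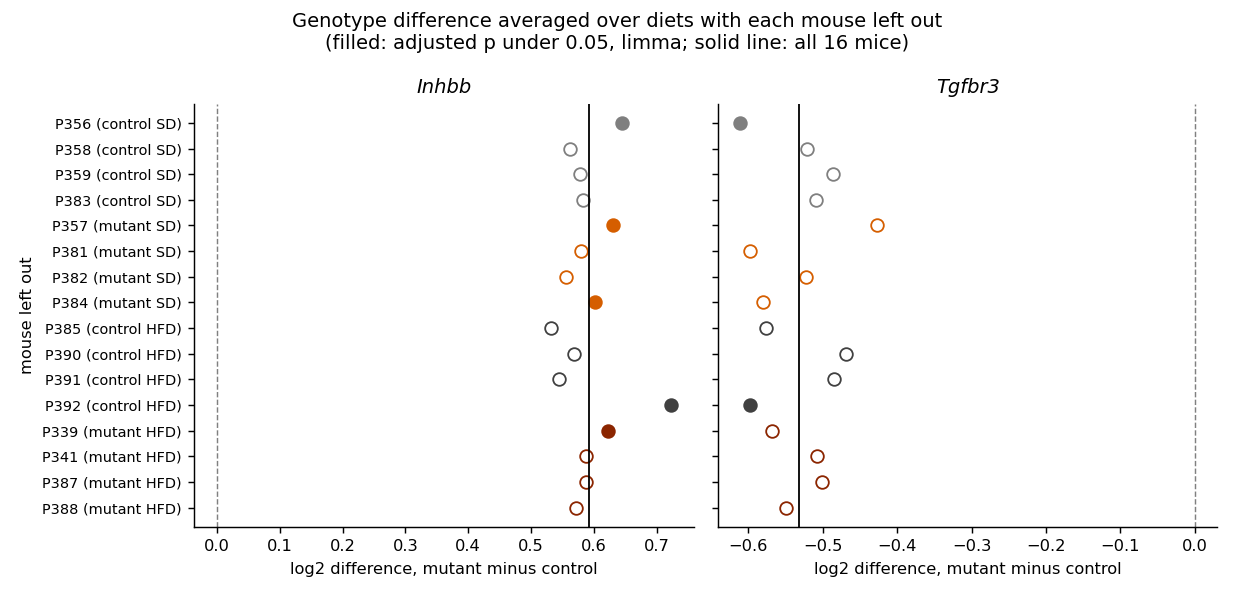
Genotype difference averaged over diets (horizontal axis, log2 scale) of Inhbb and Tgfbr3 when each mouse (vertical axis) was left out, coloured by group, with filled points at an adjusted p under 0.05 (limma) and a solid line at the value over 16 mice. Inhbb stayed between 0.53 and 0.72 and was called in 5 of 16 fits, and Tgfbr3 stayed between -0.61 and -0.43 and was called in 2.

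Between diets, the 8 genes stayed near the background. Their median difference averaged over genotypes was 0.03, against 0.01 over all tested genes, and 1 of 14345 genes (0.00697%) was called at all. The largest differences were 0.24 for *Inhbb* (95% interval -0.08 to 0.56), -0.21 for *Inhba* and -0.21 for *Inha*. Within mutants and within controls, limma called 0 members between diets, and 0 of them reached an unadjusted p under 0.05 (background 5.0% and 4.13%). Called genes overall were 0.0% in both. On SD 0 members were called between genotypes (background 1.84%) and 3 had an unadjusted p under 0.05 (19.9%), namely *Inhbb*, *Fstl3* and *Tgfbr3*. On HFD 0 were called (0.0%) and 1, *Inhbb*, had an unadjusted p under 0.05 (10.2%).

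The wider pathway list held 39 genes, of which 36 were in the table and 34 were tested. Averaged over diets, 2 rose in mutants (*Inhbb* and *Igsf1*), 1 fell (*Acvr1c*) and 31 did not pass (limma). Of all tested genes, 6.54% were called, 4.48% higher and 2.06% lower. *Acvr1c*, which encodes the type I receptor ALK7, was 1.88, 3.10, 3.91 and 3.10 in controls and 0.972, 1.15, 0.983 and 1.09 in mutants on SD. These groups did not overlap, as in 4.5% of all tested genes with the mutants below. On HFD it was 1.36 to 3.72 in controls and 0.962 to 2.72 in mutants, with overlap. *Acvr1c* fell by 0.78 on the log2 scale averaged over diets (standard error 0.21, adjusted p = 0.0356 from limma), and by 1.14 on SD without passing (adjusted p = 0.0554).

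*Igsf1*, an X-linked membrane glycoprotein gene whose loss causes central hypothyroidism, rose by 0.38 (standard error 0.10, adjusted p = 0.0371 from limma, and 0.151 with quantile normalization). It was 157 to 214 in controls and 198 to 230 in mutants on SD, and 127, 165, 138 and 220 (P392) in controls and 216 to 244 in mutants on HFD. P392 alone of the controls on HFD reached the level of the mutants. All 3 type I receptors of the list, *Acvr1*, *Acvr1b* and *Acvr1c*, had differences below 0, from -0.78 to -0.17, and 1 of them passed. The median difference over all tested genes was 0.00, and 2.06% of them were called lower. Of the 9 SMAD genes and their regulators 0 passed (limma), against 6.54% of all tested genes. An unadjusted p under 0.05 was reached by 1, *Smurf1* (-0.28, adjusted p = 0.06 from limma), against 22.7% of all tested genes.

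Among the genes of gonadotroph output, 0 of 6 passed between genotypes averaged over diets (limma), against 6.54% of all tested genes. An unadjusted p under 0.05 was reached by 1, *Lhb*, against 22.7% of all tested genes. *Lhb*, the LH beta subunit gene, was 806 to 1158 in controls and 584 to 1198 in mutants on SD. On HFD it was 1343, 1035, 986 and 473 (P392) in controls and 283 to 675 in mutants, so that the control P392 lay within the mutants' range. Its difference on HFD was -1.18 (standard error 0.31, adjusted p = 0.211 from limma), and -1.49 without P392 (adjusted p = 0.00499). Without P392, 4.55% of all tested genes were called on HFD.

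*Fshb*, the gene that activin is known to raise, varied widely, from 13.2 to 284 in controls and 28.7 to 56.0 in mutants on SD and from 7.34 to 34.8 and 19.6 to 40.7 on HFD. Its genotype difference averaged over diets was 0.11 with a 95% interval of -0.91 to 1.14 (adjusted p = 0.921 from limma), too wide to place it beside *Inhbb*. Between diets *Fshb* was lower on HFD without passing, with a difference of -1.29 averaged over genotypes (95% interval -2.32 to -0.27, limma adjusted p = 0.90, exact permutation p = 0.0351, two-sided). In controls alone the diet difference was -2.06 (95% interval -3.50 to -0.61, limma adjusted p = 0.998, exact permutation p = 0.114, two-sided), and the groups overlapped.

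*Cga*, the gene of the alpha subunit shared by LH, FSH and TSH, was 4242 to 5137 in controls and 4984 to 9479 (P357) in mutants on SD, and 5825 to 8579 (P392) in controls and 3968 to 7147 in mutants on HFD. All 4 controls on HFD exceeded all 4 on SD, as in 1.25% of all tested genes. That difference was 0.55 (standard error 0.22, limma adjusted p = 0.998), and the interaction was -0.83 (95% interval -1.50 to -0.17, adjusted p = 0.924 from limma), so neither passed.

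*Tgfbr3l*, an inhibin co-receptor gene, was 94.6 in P392 and 214 to 227 in the other controls on HFD, and 82.7 to 98.4 with 1 value of 197 (P388) in mutants. With all mice, the genotype difference of *Tgfbr3l* was -0.66 on HFD, -0.06 on SD and -0.36 averaged over diets. The exact permutation test gave two-sided p values of 0.114, 0.857 and 0.163. Without P392 the difference on HFD passed (-0.97, adjusted p = 0.0488 from limma), in a fit that called 4.55% of all tested genes. *Gnrhr* and *Foxl2*, both gonadotroph genes, differed between genotypes by 0.02 and 0.21 (adjusted p = 0.964 and 0.341 from limma). *Bmp2* was lower on HFD, by 0.59 on the log2 scale averaged over genotypes, without passing (adjusted p = 0.622 from limma). The exact permutation test of *Bmp2* alone gave 0.000408, the smallest it can give. *Bmp2* was named because its unadjusted p in this comparison was the smallest of the list, so this value is no separate support.

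**Figure D4:**
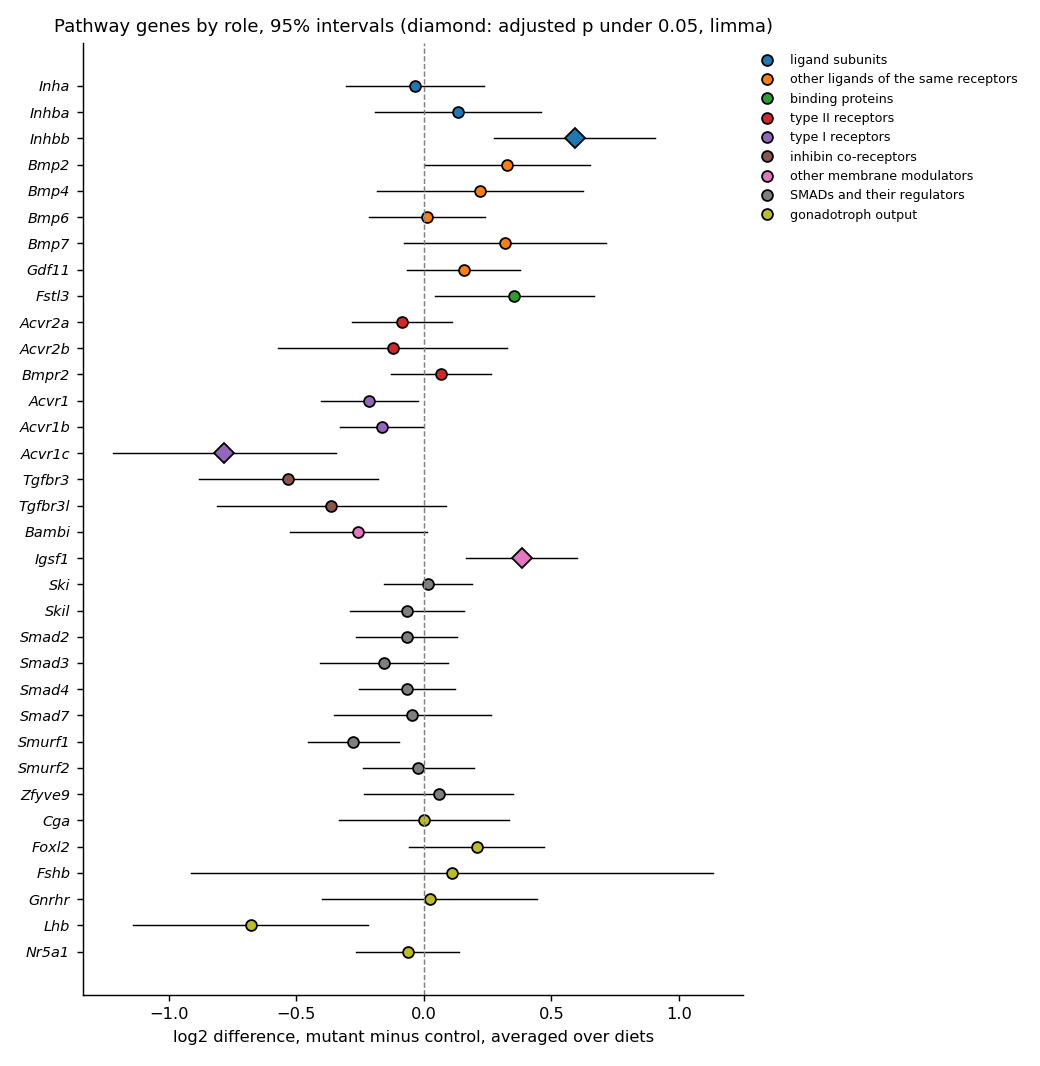
Genotype difference averaged over diets (horizontal axis, log2 scale) with 95% intervals for the 34 pathway genes tested, ordered and coloured by role, where diamonds mark an adjusted p under 0.05 (limma). Inhbb at 0.59 and Igsf1 at 0.38 lie above 0 and Acvr1c at -0.78 below, and Fst and Inhbe are absent because their means were under 1.

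Over the 16 mice, the genes whose pattern was most like that of *Inhbb* included *Tmem151b* (Pearson r = 0.97) and *Sncaip* (0.95), and those most like *Tgfbr3* were *Siae* (0.96), *Scg2* (0.96) and *Nalcn* (0.95). With the group means removed, r was between 0.88 and 0.94 for these genes. These are descriptions over 16 libraries that share their scaling and, for some genes, the extreme values of P357 and P392. Among the members themselves, r was 0.78 between *Acvr1b* and *Tgfbr3*, 0.71 between *Inhbb* and *Fstl3*, 0.65 between *Inha* and *Inhba* and -0.61 between *Inhbb* and *Tgfbr3*. With the group means removed these became 0.63, 0.59, 0.66 and -0.33.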

How the data were processed

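Pituitary RNA of 16 mice was compared in 4 groups taken from the sample labels, and the age, the diet's length and the control allele were taken from the study's methods. The authors aligned reads to the mouse transcriptome (mm10) with Kallisto in gene mode and tested genes with Sleuth, and tool versions are not given in the sources used here. The deposited values are a normalized signal per gene, never negative and scaled per length, whose exact unit is not given in the sources used here. They are not counts, so log2(value + 0.5) was fitted with limma 3.58.1 in R 4.3.3. The fit had a mean for each group, a spread shared by the 16 mice, and variances moderated with a trend. Benjamini-Hochberg adjustment was made separately in 7 comparisons, which share groups. The genes tested had a mean of at least 1. Fold changes are differences on that log2 scale.

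Single genes also had exact two-sided permutation tests, 114 in all, with mice permuted within diet or genotype for averages and p unadjusted. The members, the pathway list and the marker lists were chosen with earlier results of these data known. All members are named, as are list genes that passed, list genes among the smallest unadjusted p values, and *Gnrhr*, *Foxl2* and *Tgfbr3l*. Of the genes most like a member in pattern, those of *Inhbb* and *Tgfbr3* are given, and 1 gene is not reported here. Nothing states separate litters or cages, so p values measure the spread between these mice.

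The worth of 1 read was estimated in each library from 1455 genes with 1 transcript, where 81.3% to 90.9% of low values were within 0.1 of a whole number of reads. Its minimum number of low values was reduced to 25, and the genes tested were held fixed when mice were left out, after the values had been seen. Total reads per library are not given in the sources used here. The 2 most similar libraries had a Pearson correlation of 0.979 and 5 identical values, and each mouse counted as 1 replicate. Coordinates are from GENCODE M21 (GRCm38), and promoters, found for 7 of the 9 genes (not *Fst* or *Tgfbr3*), are RefSeq's. Alternatives were other filters and pseudocounts, median-of-ratios rescaling, quantile normalization, a fit restricted to the groups in question, variances without trend, a covariate (the lobe score or the animal-number range), and mice left out. The labels pair no mice between groups. The fit was tested on simulated data. Other steps used Python 3.11.15, numpy 2.4.6, pandas 2.3.3, scipy 1.17.1 and matplotlib 3.10.9.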

Additional observations from a re-analysis of the deposited data

Results flagged for a closer look

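In groups of 4 mice, a mouse was singled out when its gap to the nearest other was a larger share of the group's range than Dixon's 95% critical value. This held in 7 of 76 groups, and chance alone flags about 1 in 20 groups, or 3.8 here. Control P392 on HFD was singled out for *Inhbb* (13.9 against 5.98 to 7.06 in the other controls on HFD), *Fst* (0.987 against 0.0244 to 0.133) and *Tgfbr3l* (94.6 against 214 to 227). Mutant P357 on SD was singled out for *Inha* (88.4 against 45.3 to 52.6) and *Fstl3* (10.8 against 16 to 16.5). Mutant P381 on SD had an *Acvr2b* value of 11.4 against 4.03 to 5.28, and mutant P388 on HFD had a *Tgfbr3l* value of 197 against 82.7 to 98.4. P357 and P392 were also the libraries with the lowest lobe score, and the part of that score in these values was not tested.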

How the results depend on the processing

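Averaged over diets, 1 member and 3 pathway genes were called between genotypes, with 6.54% of all tested genes. Quantile normalization gave 2 and 5 (7.54% of all), the lobe score as a covariate 2 and 5 (7.39%), and leaving out both P357 and P392 gave 3 and 8 (18.6%). With 1 mouse left out the counts were 0 to 3 and 0 to 6 (3 members without P356, 2 without P392), and the share of all genes was 3.07% to 13.5% (9.84% without P356, 13.5% without P392). On SD, 0 members and 0 pathway genes were called, with 1.84% of all genes, against 1 and 3 without both P357 and P392 (6.7%), 0 to 3 and 0 to 5 with 1 mouse left out (0.23% to 5.76%), and 1 pathway gene (*Acvr1c*) with quantile normalization, without trend or with only the mice compared. On HFD, 0 and 0 (0.0% of all genes) became 1 and 4 without both libraries (7.42%), and 0 to 1 and 0 to 4 with 1 mouse left out, always through P392 (4.55%). The share of all genes called thus rose together with the counts of members when both libraries were left out. The same held without P392 alone, averaged over diets and on HFD. Without P357 alone, the share on SD fell to 0.934%. The diet and interaction comparisons called 0 members and 0 pathway genes (limma) in all settings tried. The cause of these shifts was not tested.

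Some differences that did not pass changed sign. *Inha* became 0.038 (SD) with the animal-number range as a covariate, 0.075 (HFD) with the lobe score, 0.043 (HFD) and 0.030 (mutants, HFD against SD) without both libraries, and its interaction -0.15 with the animal-number range. *Inhba* became 0.050 (SD) with the animal-number range, and for HFD against SD in mutants 0.043 with the lobe score and 0.042 without both libraries. *Fst* in controls became -0.069 with a pseudocount of 0.1 and -0.26 without both libraries. For diet, *Fstl3* became -3.21e-05 with a pseudocount of 1, -0.0055 with median-of-ratios rescaling, -0.0058 with quantile normalization, -0.0041 with the animal-number range, -0.0085 with the lobe score and -0.10 without both libraries. *Tgfbr3* for diet became -0.032 with the animal-number range, -0.043 with the lobe score and -0.0024 without both, *Acvr1b* for diet -0.0077 without both, and *Acvr2a* on HFD -0.0049 with quantile normalization.

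With 1 mouse left out, ranges that crossed 0 were -0.062 to 0.051 for *Acvr1b* (controls, diet), -0.00075 to 0.11 for *Acvr2a* (HFD), -0.076 to 0.19 for *Acvr2b* (diet), -0.078 to 0.12 for *Fstl3* (diet) and -0.069 to 0.10 for *Tgfbr3* (diet). For *Inha* they were -0.14 to 0.018 (genotype), -0.054 to 0.26 (interaction), -0.093 to 0.095 (HFD), -0.29 to 0.030 (mutants, diet) and -0.28 to 0.042 (SD). For *Inhba* they were -0.11 to 0.042 (mutants, diet) and -0.12 to 0.12 (SD), and for *Inhbb* -0.35 to 0.034 (interaction).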

Other observations

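The ratio of *Inhbb* to *Tgfbr3* within each mouse, chosen after the values were seen and not tested, was 0.245 to 0.564 in controls on SD and 0.771 to 1.33 in mutants on SD. On HFD it was 0.337 to 0.469 in 3 controls, 1.20 in P392 and 0.625 to 0.971 in mutants. The ratio of *Inhbb* to *Inha* was 0.0835 to 0.152 in controls on SD, and in mutants on SD it was 0.0969 in P357 and 0.203 to 0.263 in the others. On HFD this ratio was 0.122 to 0.155 in 3 controls, 0.251 in P392 and 0.196 to 0.250 in mutants, so that P392 was the highest and the groups overlapped. In the 250 bases before the starts of the other members with a RefSeq promoter, AGGTCA was found once in *Fstl3* and once in *Inha* and in none of *Acvr1b*, *Acvr2a* and *Acvr2b*, and GC boxes numbered 4 in *Fstl3*, 4 in *Acvr1b*, 3 in *Acvr2b*, 2 in *Acvr2a* and 0 in *Inha*. SMAD boxes (CAGAC) numbered 2 in *Fstl3*, 1 each in *Inha*, *Acvr2a* and *Acvr2b* and 0 in *Acvr1b*.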
